A study of Homo sapiens with 6 samples.

Results

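The acyl-CoA thioesterases are a family of enzymes named by ACOT gene symbols, and 9 of them, ACOT1, ACOT2, ACOT4, ACOT6, ACOT7, ACOT8, ACOT9, ACOT11 and ACOT13, were followed here in HT1080 cells, a human fibrosarcoma line. They were chosen because the transcript of ACOT2 was about 40 times lower in TOP3B knockout cells than in wild-type (WT) cells, and ACOT2 is read here with its paralogs on 14q24 and the rest of the family. The deposited tables hold 35819 genes that could be used. Of the 9 members 8 had a row and 6 passed the filter on low counts, among 13965 genes that passed it. ACOT4 was not analysed here. Total RNA depleted of ribosomal RNA was sequenced from 3 WT libraries and 3 libraries of the line E2-2, in which TOP3B was targeted by CRISPR with a guide RNA against exon 2. All were grown in the same serum-containing medium, and neither group had any other stated allele or agent. E2-2 is the name of a single knockout line, so line and genotype cannot be told apart. Whether replicates came from separate cultures is not in the labels, and a p-value here speaks only of library-to-library spread, possibly technical.

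Acyl-CoA thioesterases cut the thioester bond of fatty acyl-CoA and release a free fatty acid and coenzyme A. They act in the opposite direction to the acyl-CoA synthetases, and the pair sets how much activated fatty acid a compartment holds. One branch, with the fold of alpha/beta hydrolases, is encoded side by side on 14q24: ACOT1 acts in the cytosol, ACOT2 in the mitochondrial matrix and ACOT4 in peroxisomes. The other branch has the hotdog fold and is scattered over the genome. It includes the cytosolic ACOT7, the peroxisomal ACOT8, the mitochondrial ACOT9, the START-domain enzyme ACOT11 (also named THEM1) and ACOT13 (THEM2), which associates with mitochondria. TOP3B encodes topoisomerase III-beta, which acts on DNA and RNA, and the stated purpose of the series was to relate it to R-loops (RNA-DNA hybrids) and transcription.

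The promoters of ACOT2 and ACOT13, the members lower in the knockout, are shown because they differ in CpG content. RefSeq (GRCh38.p14) gave windows from 250 bases before to 50 bases after a transcript start for 8 of the 9 members, 12 windows in all, and none for ACOT1. CG dinucleotides are in capitals. Each is read 5′ to 3′ on the strand of the gene, which is the plus strand for both. The ACOT2 windows, at chr14:73568809-73569108 and chr14:73568963-73569262, belong to neighbouring starts and overlap. Both lie after the GENCODE start of ACOT2, 73567620, which is used below for distances, so they do not describe that start. The ACOT13 window lies at chr6:24666827-24667126.
ACOT2, first window: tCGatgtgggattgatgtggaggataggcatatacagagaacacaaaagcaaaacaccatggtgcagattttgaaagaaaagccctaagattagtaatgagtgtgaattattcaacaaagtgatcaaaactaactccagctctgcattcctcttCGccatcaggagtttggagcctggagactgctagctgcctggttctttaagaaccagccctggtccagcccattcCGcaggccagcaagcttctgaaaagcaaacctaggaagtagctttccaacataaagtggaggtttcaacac
ACOT2, second window: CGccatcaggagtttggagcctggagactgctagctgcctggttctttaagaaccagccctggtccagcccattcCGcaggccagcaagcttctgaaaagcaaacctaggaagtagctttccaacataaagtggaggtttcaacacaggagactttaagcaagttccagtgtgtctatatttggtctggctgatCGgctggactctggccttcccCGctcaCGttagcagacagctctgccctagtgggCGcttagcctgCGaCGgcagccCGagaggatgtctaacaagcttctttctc
ACOT13: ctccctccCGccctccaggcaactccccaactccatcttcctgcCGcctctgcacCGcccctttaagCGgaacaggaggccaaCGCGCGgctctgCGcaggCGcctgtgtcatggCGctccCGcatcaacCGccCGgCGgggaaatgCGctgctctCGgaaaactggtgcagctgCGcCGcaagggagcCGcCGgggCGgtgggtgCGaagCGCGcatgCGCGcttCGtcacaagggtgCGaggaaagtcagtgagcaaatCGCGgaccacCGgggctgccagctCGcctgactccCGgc

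The first ACOT2 window held 3 CG dinucleotides at 45.0% GC, the second 9 at 53.7% GC, and the ACOT13 window 33 at 69.0% GC. Over 35116 RefSeq windows of this length the median was 14 CG dinucleotides and 58.7% GC. The observed over expected ratio of CG was 0.198 and 0.417 for ACOT2 and 0.930 for ACOT13, which is above 84.3% of all windows. Other members ranged as widely, with 0.965 for ACOT9, 0.143 to 0.868 over the ACOT7 windows and 0.0928 for ACOT6. A link of CpG content to the change in the knockout was not tested. GC skew, the excess of G over C on the gene's strand as a share of both, was 0.0222 and -0.0311 for ACOT2 and -0.0821 for ACOT13, against a median of 0.0122. The most G-skewed member window was that of ACOT11, at 0.296. Of the letter motifs searched on both strands, GGGCGG was in the ACOT13 window and in neither ACOT2 window (45.0% of all windows), and TATAAA (11.5%), CCAAT (34.6%) and TGACGTCA (1.85%) were in none of these 3 windows.

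Library totals lay between 17919106 and 20475280 counts. Knockout replicate 3 stood apart: over 6456 well-expressed genes, log2 differences had an SD of 0.641 and 0.615 between it and the other knockout replicates, 0.240 between those, and 0.270 to 0.330 within WT. TOP3B itself had 376 to 536 counts in WT and 361 to 407 in the knockout, and gene-level counts do not check a small edit in exon 2. One sentence of the design text calls the wild-type cells HCT116, a colorectal line, where the labels have HT1080. The intestinal markers KRT20, CDX2 and GPA33 were at 0 in all libraries, EPCAM had 12 counts in all and VIL1 had 5. The 9 colorectal epithelial markers in the tables summed to 106 to 118 CPM (counts scaled to a common library size) in WT and 109 to 132 in the knockout. That sum was mostly KRT8 (92.7 and 90.5) and KRT18 (16.5 and 26.4). CDH1 (1.97 and 1.63) and the intestinal marker LGALS4 (1.72 and 2.01) also had a mean of at least 1 CPM. Of 4 hepatocyte markers SERPINA1 alone was above 1 CPM (3.08 in WT and 10.7 in the knockout), ALB had 3 counts, APOA1 had 1 and TTR was at 0. Summed adipocyte markers were at no more than 0.295 CPM with ADIPOQ at 0. Of 8 mesenchymal markers 7 had a mean of at least 1 CPM, with a sum of 30200 to 31300 in WT and 18700 to 20400 in the knockout, and THY1 had 1 count in all. Most of that difference lay in FN1 (11700 and 3170 CPM) and SPARC (5730 and 3450). TPM2 (283 and 164) and S100A6 (49.3 and 40.9) were also lower in the knockout. VIM was at 11700 and 11500, CD44 at 1350 and 1240 and LGALS1 at 21.3 and 25.9. The part of these differences in the results was not tested.

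ACOT2 was present in WT cells and nearly gone in the knockout. Its estimated counts were 345, 399 and 484 in WT replicates 1 to 3 and 10, 12 and 9 in knockout replicates 1 to 3. As CPM, scaled by TMM, these were 19.6, 20.2 and 23.8 against 0.492, 0.604 and 0.461. The lowest WT library was 32.5 times the highest knockout library, and the 3 knockout libraries lay close together. The means were 21.2 ± 2.25 and 0.519 ± 0.0755 CPM (SD, n = 3 each), a ratio of 40.9 and a fitted log2 fold change of -5.34 ± 0.22 (SE), or -5.27 without knockout replicate 3. This is the value that chose the family, so it is given as a description with no test. Of the tested genes 14 (0.1%) had a log2 fold change as low as this or lower, ACOT2 included. Summed over libraries, 1228 counts stood against 31, a ratio of 41.1 with a 95% exact binomial interval of 28.8 to 60.7, which covers counting error only. In RNA from whole cultures, fewer cells with the transcript and less of it per cell cannot be told apart.

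ACOT1 and ACOT6, paralogs of ACOT2 on 14q24, gave almost no counts in either group, while ACOT4 was not analysed. In GENCODE release 29 (GRCh38), ACOT1 lies on the plus strand of chromosome 14 from 73537114 to 73543794, ACOT2 from 73567620 to 73575658 and ACOT6 from 73610945 to 73619888. ACOT1, the cytosolic enzyme, had 1 count, in knockout replicate 1, and 0 in the other 5 libraries. ACOT6 had 0 counts in all 6 libraries, where 3 counts would be 0.148 to 0.171 CPM in a library. ACOT12, a family member outside the 9 chosen, was also at 0 in all 6. ACOT1 and ACOT2 are near-identical over much of their length: of the 31-base words in ACOT1 transcripts 65% also occur in ACOT2 transcripts, and 46.1% of those in ACOT2 occur in ACOT1, whereas ACOT6 shares 1.13% of its words with ACOT1 and 0.178% with ACOT2. Reads from the shared stretches could have been given to either gene, so the counts of ACOT1 and ACOT2 are uncertain one by one. Their sum, which does not depend on how such reads were divided, was 345, 399 and 484 counts in WT and 11, 12 and 9 in the knockout. As CPM the sum was 21.2 ± 2.25 and 0.535 ± 0.0720 (SD, n = 3 each), a log2 ratio of -5.31. The sum and ACOT2 alone thus gave nearly the same difference.

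**Figure D1:**
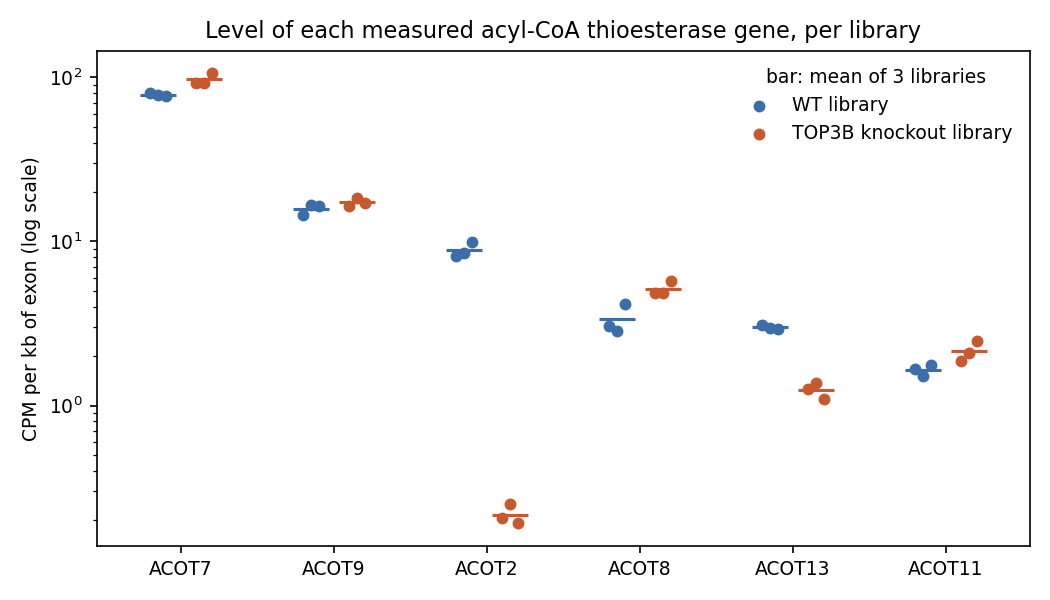
CPM per kb of merged exon length (log axis) of the 6 members that passed the filter, for 3 WT (blue) and 3 TOP3B knockout libraries (orange), with each mean as a bar. ACOT2 went from 8.87 ± 0.941 to 0.217 ± 0.0316, while ACOT7 stayed the most abundant member in both groups.

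To compare members with each other, CPM were divided by merged exon length. In WT cells ACOT7 was the most abundant at 78.4 ± 1.70 CPM per kb (SD, n = 3), 4.96 times the next member, ACOT9 at 15.8 ± 1.26. ACOT2 had rank 3 at 8.87 ± 0.941, above ACOT8 at 3.36 ± 0.692, ACOT13 at 3.01 ± 0.0908 and ACOT11 at 1.65 ± 0.132. ACOT8 and ACOT13 were the one pair of neighbours in this order whose library values overlapped. In the knockout the order was ACOT7, ACOT9, ACOT8, ACOT11, ACOT13 and ACOT2, at 97.2 ± 7.35, 17.3 ± 1.02, 5.14 ± 0.497, 2.14 ± 0.307, 1.24 ± 0.141 and 0.217 ± 0.0316 CPM per kb, and no neighbours overlapped. ACOT2 thus had rank 3 of 6 in WT cells and rank 6 in the knockout, where it was 5.74 times below ACOT13. The deposited RPKM give another order. The length they imply is 98.2 kb for ACOT7 and 5.44 kb for ACOT2, against merged exon lengths of 4.12 and 2.39 kb. Both are longer than all the exons together, so the RPKM order is not read as an order of transcript level. On that scale ACOT2 in WT replicates 1 to 3 was at 3.54, 3.59 and 4.34 RPKM and ACOT7 at 3.31, 3.15 and 3.22 RPKM.

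Of the 5 tested members other than ACOT2, 1 fell, none rose and 4 were not called by edgeR's quasi-likelihood test at a Benjamini-Hochberg threshold of 0.05 over all 13965 genes. Across all genes 7.84% passed, 4.63% lower and 3.21% higher. At an unadjusted p under 0.05 there were 3 of the 5 (24.7% of the 13965 genes). DESeq2 called 1 of the 5, and 13.5% of the 15276 genes to which it gave an adjusted p. The median log2 fold change of the 5 members was 0.31, beside 0.05 for all genes tested. Since the family was picked from this contrast, the count describes its members and is not evidence about the family.

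**Figure D2:**
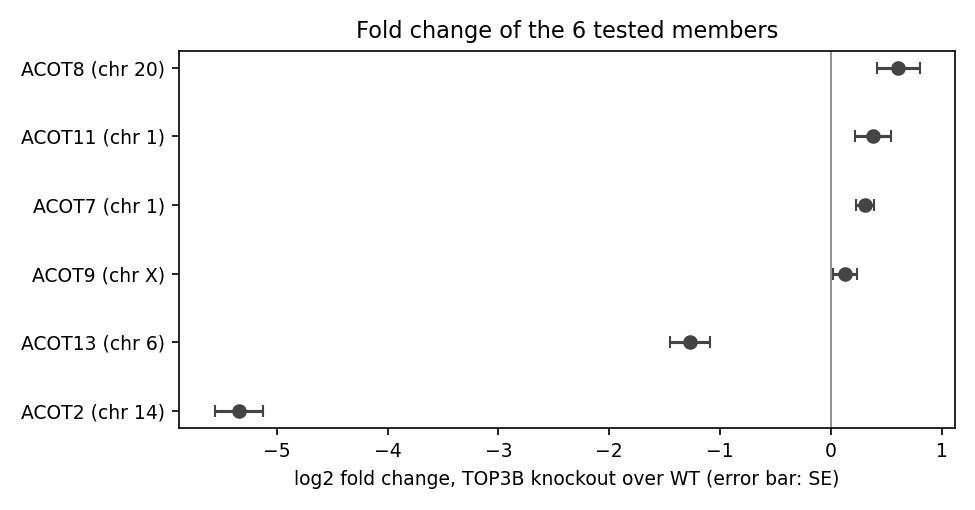
Fitted log2 fold change (knockout over WT) with its SE for the 6 tested members, each with its chromosome. ACOT2 at -5.34 and ACOT13 at -1.27 lie below 0 and the other 4 between 0.13 and 0.61.

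The one that fell was ACOT13, the small hotdog-fold thioesterase that associates with mitochondria. It had 240, 259 and 262 counts in WT and 113, 120 and 94 in the knockout, and its CPM were 13.7, 13.1 and 12.9 against 5.56, 6.04 and 4.81. The groups did not overlap, which 17.1% of all tested genes also showed in this direction and 33.6% in either direction. Mean CPM was 13.2 ± 0.399 in WT and 5.47 ± 0.621 in the knockout (SD, n = 3 each). ACOT13 thus fell 2.42-fold, or by 1.27 ± 0.18 (SE) on the log2 scale (edgeR adjusted p = 0.0105), and by 1.2 without knockout replicate 3. The call was lost without WT replicate 1, 2 or 3, at edgeR adjusted p of 0.0533, 0.0607 and 0.0519 and log2 fold changes of -1.26, -1.28 and -1.30. ACOT13 lies on chromosome 6 from 24667035 to 24705065, and the 592 tested genes of that chromosome had a median log2 fold change of -0.27, with 59 called lower and 5 higher, whose part in the result was not tested.

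The start of ACOT13 is shared with a gene of DNA repair. TDP2, a phosphodiesterase that removes topoisomerase adducts from DNA ends, starts 2 bases away on the other strand and runs in the opposite direction, from 24649977 to 24667033, and was looked at after its values were seen. TDP2 was at 2.90, 3.45 and 2.51 CPM in WT and 2.26, 2.57 and 5.42 CPM in the knockout, so the groups overlapped and knockout replicate 3 was the highest library. TDP2 was not called, at 0.21 ± 0.40 (log2 fold change, SE, edgeR adjusted p = 0.779). Without knockout replicate 3 it was -0.30 (edgeR adjusted p = 0.560). Whether ACOT13 and TDP2 differ in their response was not tested. Other tested genes near ACOT13, also named after their values were seen, were not called by edgeR. Their log2 fold changes were 2.59 ± 0.65 for ALDH5A1, 0.88 ± 0.58 for GPLD1, -0.17 ± 0.72 for C6orf62 and 0 ± 0.14 for GMNN (SE). ALDH5A1 had a DESeq2 adjusted p of 0.00303. Without knockout replicate 3 C6orf62 was at -1.54 (edgeR adjusted p = 0.0376).

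The 4 other members had higher mean values in the knockout, and none of them passed. ACOT7, the abundant cytosolic enzyme, was at 332, 320 and 319 CPM in WT and 384, 383 and 436 CPM in the knockout, with a log2 fold change of 0.31 ± 0.08 (SE, edgeR adjusted p = 0.0729). It passed without knockout replicate 3, the highest library, at a log2 fold change of 0.24 (edgeR adjusted p = 0.0284). ACOT8, the peroxisomal enzyme, was at 12.9, 12 and 17.5 against 20.3, 20.5 and 24 CPM, a log2 fold change of 0.61 ± 0.19 (SE, edgeR adjusted p = 0.103), or 0.52 without knockout replicate 3. ACOT8 lies on chromosome 20, whose 330 tested genes had a median of 0.31, and the part of this was not tested. ACOT11 was at 16.5, 14.7 and 17.2 against 18.2, 20.5 and 24.1 CPM, a log2 fold change of 0.38 ± 0.16 (SE, edgeR adjusted p = 0.210), or 0.25 without knockout replicate 3, its highest library. In ACOT7, ACOT8 and ACOT11 the 3 knockout libraries lay above the 3 WT libraries, which 16.5% of all tested genes showed. ACOT9, the other mitochondrial member, overlapped between the groups at 72.4, 83.6 and 83.3 against 82.8, 93.0 and 86.5 CPM, with a log2 fold change of 0.13 ± 0.11 (SE, edgeR adjusted p = 0.493).

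Genes around ACOT2 were compared next. Of the genes that start within 1 Mb of the start of ACOT2, members left out, 18 were tested and none passed (edgeR quasi-likelihood test), where 7.84% of all genes and 5.97% of those on chromosome 14 did. So few genes cannot tell a share of 0 from these. Their median log2 fold change was 0.03. At an unadjusted p under 0.05 there were 3 of the 18, beside 24.7% of all genes tested. DESeq2 called none of them, beside 13.5% of the genes to which it gave an adjusted p. NUMB, an inhibitor of Notch signalling whose start lies at -109 kb from that of ACOT2, was the nearest tested gene on that side. It was at 238, 244 and 253 against 202, 203 and 148 CPM, with a log2 fold change of -0.41 ± 0.14 (SE, edgeR adjusted p = 0.122). Its groups did not overlap, which 17.1% of all tested genes showed in this direction. DNAL1, an axonemal dynein light chain gene 77.3 kb after the start of ACOT2, was at 9.39 ± 3.04 and 10.1 ± 2.93 CPM (SD, n = 3 each), a log2 fold change of 0.10 ± 0.33 (SE). HEATR4, which starts at -8.67 kb on the other strand, had 4 counts over the 6 libraries and was not tested. Without knockout replicate 3 NUMB and DPF3 passed, at log2 fold changes of -0.28 and 0.82 (edgeR adjusted p = 0.0253 and 0.0246), DPF3 being named after its value was seen, and 13.2% of all genes passed in that fit. The 452 tested genes of chromosome 14 had a median of 0.06.

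**Figure D3:**
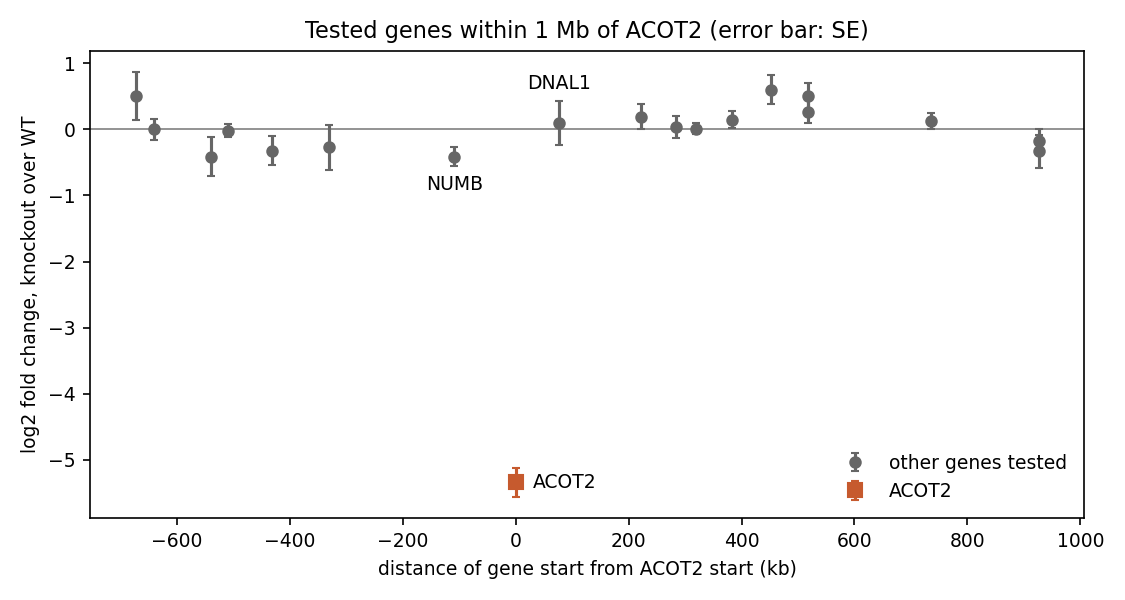
Log2 fold change (knockout over WT, error bars SE) of the 18 tested genes that start within 1 Mb of ACOT2 and of ACOT2 itself, against the distance of their starts in kb. ACOT2 lies at -5.34, while NUMB at -0.41 and DNAL1 at 0.10, the nearest tested genes on each side, were not called.

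Genes of fatty acid and CoA metabolism, with PPAR receptors and their targets, were read from 6 lists. Not all of the listed genes make or use fatty acyl-CoA. Of 126 genes 90 were tested, of which 1 rose, 3 fell and 86 did not pass, or 4.44% called beside 7.84% of all genes. Their median log2 fold change was 0.10. The 4 calls became 1 without any one of WT replicates 1 to 3 or knockout replicates 1 and 2, 6 without knockout replicate 3 and 10 with DESeq2, so nothing is read from the difference in shares. The carnitine shuttle and mitochondrial beta-oxidation held 3 of the 4 calls among 25 tested genes, with a median of 0.14. That is 12% called beside 7.84% of all genes, and nothing is read from this difference either. ETFDH, which passes electrons from fatty acid oxidation to ubiquinone, fell from 24.5 ± 5.18 to 12 ± 2.85 CPM (SD, n = 3 each, log2 fold change -1.03 ± 0.24 SE, edgeR adjusted p = 0.0496). DECR1, the mitochondrial reductase needed for unsaturated fatty acids and named after its value was seen, was at 31.5, 32.2 and 36.3 CPM in WT and 17.3, 16.4 and 15.9 CPM in the knockout. It fell 2.02-fold (log2 fold change -1.01 ± 0.13 SE, edgeR adjusted p = 0.00845). It passed with each library left out, though narrowly in some fits, with edgeR adjusted p up to 0.0494 without WT replicate 2. ACAD8, a dehydrogenase of valine breakdown, rose from 18.2 ± 2.40 to 32.7 ± 1.31 CPM (log2 fold change 0.85 ± 0.14 SE, edgeR adjusted p = 0.0199). ACADVL, which starts the oxidation of long chains and was named after its value was seen, had 251 ± 17.8 CPM in WT and 272 ± 37.7 in the knockout and was not called (edgeR adjusted p = 0.596).

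Among 12 tested thioesterases and CoA hydrolases outside the ACOT names, the median was -0.06, 1 fell, none rose and 11 were not called. The share called was 8.33%, near the 7.84% of all genes. The gene called was THEM4, a mitochondrial thioesterase, at 24 ± 3.15 and 14.6 ± 0.809 CPM (SD, n = 3 each, log2 fold change -0.72 ± 0.15 SE, edgeR adjusted p = 0.0360). ETFDH passed in none of the 6 fits without 1 library, with edgeR adjusted p up to 0.170 without WT replicate 2, nor under upper quartile scaling, without a low-count filter or in either limma fit. THEM4 was not called without that filter or in either limma fit. ACAD8 and THEM4 passed in 1 of the 6, without knockout replicate 3, and their adjusted p reached 0.0975 and 0.138 without WT replicate 2.

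In the other 4 lists no gene passed in edgeR's test. For the counts that follow, 24.7% of the 13965 genes tested had an unadjusted p under 0.05. DESeq2 called 13.5% of the 15276 genes to which it gave an adjusted p. With so few genes per list, nothing is read from the counts. The acyl-CoA synthetases, which run the reverse reaction, had 14 tested genes and a median of 0.16, with 3 at an unadjusted p under 0.05 and 1 called by DESeq2. Their most abundant members per exon length, ACSL3 and ACSL4, were at 290 ± 12.7 and 319 ± 15.1 CPM and at 103 ± 3.77 and 86.3 ± 2.92 CPM (SD, n = 3 each, WT first). Peroxisomal beta-oxidation had 16 tested genes and a median of -0.02, with 4 at an unadjusted p under 0.05 and 2 called by DESeq2. One of those was ACOX3, a peroxisomal acyl-CoA oxidase, at 44.8 ± 3.54 and 33.8 ± 2.95 CPM, and the carrier protein gene SCP2 was at 83.5 ± 3.05 and 74.1 ± 12.4 CPM (log2 fold change -0.17, and -0.06 without knockout replicate 3). PPAR receptors and targets, the nuclear receptor programme that controls ACOT genes in liver, had 10 tested genes and a median of 0.10, with 2 at an unadjusted p under 0.05 and none called by DESeq2. RXRB was at 56.6 ± 2.12 and 45.3 ± 3.71 CPM and PPARD at 24.5 ± 0.372 and 19.8 ± 2.90 CPM. CoA synthesis and acyl-CoA binding had 13 tested genes and a median of 0.17, with 5 at an unadjusted p under 0.05 and none called by DESeq2. COASY, the last enzyme of CoA synthesis, was at 93.0 ± 13.6 and 126 ± 22.4 CPM (log2 fold change 0.44, and 0.29 without knockout replicate 3) and PPCS at 59.8 ± 2.31 and 62.9 ± 1.73 CPM. ACOX3 and RXRB passed without knockout replicate 3.

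**Figure D4:**
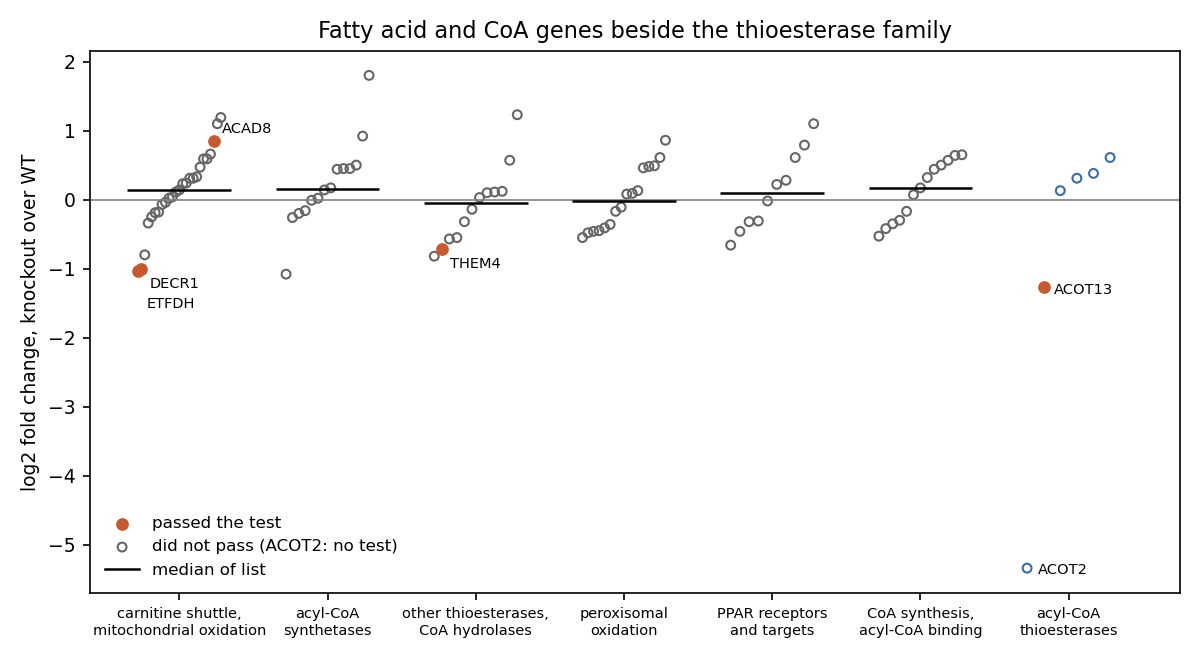
Log2 fold change (knockout over WT) of each tested gene in 6 lists of fatty acid and CoA genes and in the ACOT family, with filled points for genes that passed the test and a bar for the median of each of the 6 lists. ACOT2, for which no test is given, lies at -5.34, and the list medians lie between -0.06 and 0.17.

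The genes whose pattern over the 6 libraries was most like that of ACOT2 were listed last. Since likeness to ACOT2 chose them, their presence in WT and near absence in the knockout follows from the choice and is no separate result. Likeness was the root mean square difference of mean-centred log2 CPM with a prior count of 2. The closest were MBNL1-AS1 (0.21), GASK1B (0.25), ZNF225-AS1 (0.27), FRMPD4 (0.30) and CNTN1 (0.34). The first 4 had 0 counts in the 3 knockout libraries, at 49 to 59, 85 to 88, 82 to 98 and 53 to 74 counts in WT, so the prior count sets their place. CNTN1, a neuronal contactin, was at 209, 218 and 240 counts in WT and 4, 7 and 9 in the knockout. None of the 4 with a known position lies on chromosome 14, and ZNF225-AS1 was not placed. Of these 5 genes, MBNL1-AS1 and ZNF225-AS1 are antisense genes, and no source used here says if reads were counted by strand.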

How the data were processed

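Total RNA of HT1080 cells, depleted of ribosomal RNA, was sequenced as paired-end libraries with reads of 101 bases. Values came as 2 deposited tables by gene symbol, 1 of estimated counts and 1 of RPKM. Per the submitters' processing notes Salmon 1.10.1 and hg19 were used, with the role of each left unstated. The authors deposited the estimated counts as whole numbers, and they were used as such. The authors' RPKM values were used for lengths, levels and alternatives. One entry with different symbols in the tables was left out. Positions are from GENCODE release 29 on GRCh38, to which 91.1% of symbols matched, directly or through RefSeq synonyms, and no hg19 position is used.

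After filterByExpr, edgeR 4.0.16 under R 4.3.3 was run with TMM scaling and its quasi-likelihood test, and p-values were adjusted over all genes tested by the Benjamini-Hochberg method at a threshold of 0.05. SE were derived from the F statistic. Levels are CPM, and CPM per kb of merged exons between genes. Intervals and floors of 3 counts cover counting error only. Groups followed the labels. The knockout labels carry no replicate number, so numbers follow deposition order and form no pairs. The members, the lists and the naming rule were chosen with earlier results of these data known. The rule named the members, the called gene with the largest change per list and direction at 1 CPM or more (else the 2 most abundant per length), the nearest tested gene on each side of ACOT2 and up to 4 called ones, and the 5 genes most like ACOT2. Alternatives were DESeq2 1.42.0, its size factors, upper quartile scaling, no filter, a filter of 1 CPM in 3 libraries, limma 3.58.1 on log2(RPKM + 1) or log2(RPKM + 0.1), and each library left out. The tests were tried on simulated data.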

Additional observations from a re-analysis of the deposited data

How the results depend on the processing

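The log2 fold change of ACOT2 was -2.14 on log2(RPKM + 1) and -4.36 on log2(RPKM + 0.1), where the pseudocount shrinks a gene near 0, and -5.46 to -5.25 with each library left out. The log2 ratio of ACOT1 and ACOT2 summed ranged from -5.41 to -5.21 with each library left out. The number of genes called, 1095 in all, was 2068 with DESeq2 and 223 to 1899 with 1 library left out. The 4 fatty acid and CoA calls became 10 with DESeq2, 2 without a low-count filter and 1 to 6 with 1 library left out. The neighbours of ACOT2 had 0 to 2 calls with 1 library left out, the 2 being without knockout replicate 3. The cause of these changes was not tested. Of 325 values of 25 single genes under the alternatives, 289 kept direction and side of the threshold, 28 lost a call (19 with a library left out) and 5 gained one. The 25 include genes with no call to lose and the 5 picked for likeness to ACOT2, so the 289 do not measure how firm the calls are. The lost calls were those of ETFDH, THEM4, ACAD8, ACOT13 and, in the limma fits, FRMPD4. The adjusted p of ETFDH was 0.0567 under upper quartile scaling, 0.0560 without a low-count filter, and 0.0716 and 0.0717 with limma on log2(RPKM + 1) and log2(RPKM + 0.1). That of THEM4 was 0.0577 without the filter and 0.0673 and 0.0666 with limma. The 3 that changed sign were DNAL1, at -0.11 without knockout replicate 3 and -0.14 without WT replicate 3 (range to 0.31 with a library left out), and TDP2, at -0.30 without knockout replicate 3 (range to 0.44). No paired analysis was possible because the knockout labels carry no replicate number. The knockout level of ACOT2 rests on 31 counts over 3 libraries, which limits the precision of its ratio.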

Other observations

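The deposited whole-number counts lay above the values that the RPKM of the same gene and a library where it was abundant give. Over 70 low values of 49 genes, the deposited count was higher by a median of 0.392, with a range of -0.02 to 0.958. For ACOT2 in knockout replicates 1 to 3 the values from RPKM were 9.045, 11.25 and 8.772 where the deposited counts were 10, 12 and 9. With these the ratio of WT to knockout was 43.6, against 40.9 from the deposited counts.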
